A study of Mus musculus with 40 samples.

Results

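Cytochrome P450s are haem enzymes of the endoplasmic reticulum and the mitochondrion that insert an oxygen atom into drugs, toxins, steroids, retinoids and fatty acids. The P450 genes of mouse liver described here were chosen by name: every entry whose symbol begins with Cyp and a digit, leaving out the Cyp4a genes and Cyp7a1, Cyp7b1, Cyp8b1, Cyp27a1, Cyp51, Cyp2e1 and Cyp1a2. The rule kept 54 of the 67 P450 entries among 11119 genes and left out 13, of which 7 were Cyp4a genes. The rule goes by symbol and not by pathway, so Cyp2c70, Cyp39a1 and Cyp46a1, which act on bile acids or cholesterol, are among the members.

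Polyadenylated RNA of mouse liver, with hepatocytes given as the cell type, was sequenced at 0 h, that is before partial hepatectomy (PH), and again 48 h or 72 h later. In PH a share of the liver is cut away, and hepatocytes of the rest then divide. The 40 samples formed 9 groups: mice aged 12 months at 0 h (n = 8), 48 h (n = 3) and 72 h (n = 4), mice aged 3 months at 0 h (n = 7), 48 h (n = 3) and 72 h (n = 4), and mice given ATRi, an inhibitor of the replication-stress kinase ATR, 24 h after PH, namely 12-month mice at 48 h (n = 3) and 72 h (n = 4) and 3-month mice at 72 h (n = 4). Strain, sex, the identity of the inhibitor and the unit of its dose are not given in the sources used here, and no vehicle is named for the untreated mice. Of the 7 samples of 3-month mice at 0 h, 3 carry a label with wt in place of a mouse number. The meaning of that label is not given in the sources used here. These 3 samples are part of the 3-month mean at 0 h, and their share in its differences was not tested. By mouse number, 12 mice were sampled at both 0 h and 72 h, 8 of them aged 12 months and 4 aged 3 months.

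Levels are log2 of a value that the authors call sigma, written log2 sigma below, and a difference is a difference of such levels. The files hold 1 mean for each of 8 groups, with no spread between mice. Only 12-month mice at 72 h after PH with ATRi are also held as single livers (M545, M546, M547 and M548). A comparison of means is therefore given by its size, counted at a difference of 1 or more, without a test. Comparisons of the 4 livers were tested across all genes with limma (Benjamini-Hochberg adjusted p under 0.05, two-sided), with the livers' spread assumed for the other groups. Sigma is not known to be per unit of transcript length, so levels are compared between groups and not between genes, and the depth of the libraries is unknown. Alb, which encodes albumin, had levels of 14.65 to 16.01 over the 9 means, while Ly6g, a neutrophil marker, had at most 0.63. In a whole piece of liver, fewer cells of a type and less RNA per cell cannot be told apart.

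Many P450s of families 1 to 3 are switched on by receptors for foreign compounds. CAR and PXR act on Cyp2b, Cyp2c and Cyp3a genes, and AHR acts on Cyp1a1 and Cyp1b1. Electrons reach the microsomal P450s through the reductase encoded by Por. Retinoic acid induces its own hydroxylase, Cyp26a1, and growth hormone sets the sex bias of several Cyp2 genes in mouse liver.

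The promoters of 3 members that the results turn on are shown because their levels differed between ages after PH. Each window runs from 250 bases before the RefSeq transcription start to 50 bases after it (GRCm38.p6, plus strand, 5′ to 3′). The windows are chr7:26835089-26835388 for Cyp2a5, chr7:25897408-25897707 for Cyp2b10 and chr19:37697558-37697857 for Cyp26a1. Capitals mark TTGCATAA, a C/EBP-type site, in Cyp2a5 and Cyp2b10, and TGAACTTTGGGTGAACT, the reverse strand of a retinoic acid direct repeat (AGTTCA, any 5 bases, AGTTCA), in Cyp26a1.
Cyp2a5: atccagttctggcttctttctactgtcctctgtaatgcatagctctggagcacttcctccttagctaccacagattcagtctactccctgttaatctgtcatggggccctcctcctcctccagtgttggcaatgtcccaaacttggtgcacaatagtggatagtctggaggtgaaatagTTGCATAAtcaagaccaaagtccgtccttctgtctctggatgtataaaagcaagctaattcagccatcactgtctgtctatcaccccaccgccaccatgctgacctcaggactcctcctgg
Cyp2b10: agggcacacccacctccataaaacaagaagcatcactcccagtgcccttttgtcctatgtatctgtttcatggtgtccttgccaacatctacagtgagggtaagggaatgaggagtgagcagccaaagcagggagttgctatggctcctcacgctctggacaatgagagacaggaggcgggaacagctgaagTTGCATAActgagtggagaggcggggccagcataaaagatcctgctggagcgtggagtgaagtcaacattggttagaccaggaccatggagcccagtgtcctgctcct
Cyp26a1: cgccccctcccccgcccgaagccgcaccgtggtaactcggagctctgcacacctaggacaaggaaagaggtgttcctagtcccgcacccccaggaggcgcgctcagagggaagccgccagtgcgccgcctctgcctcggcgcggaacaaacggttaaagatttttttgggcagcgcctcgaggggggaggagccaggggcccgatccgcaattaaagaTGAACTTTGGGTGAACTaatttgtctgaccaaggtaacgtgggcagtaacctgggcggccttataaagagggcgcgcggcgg

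Windows were found for 46 of the 54 members and for 27025 genes in all, and motifs were searched on both strands. TTGCATAA, chosen after the windows had been read, stood in 3 of the 46 members, Cyp2a4, Cyp2a5 and Cyp2b10, and in 0.792% of all windows. It lay 71 to 64 bases before the start in Cyp2a5, 70 to 63 in Cyp2a4 and 58 to 51 in Cyp2b10. The retinoic acid repeat stood in Cyp26a1 alone among the members, 32 to 16 bases before the start, and in 0.0259% of all windows. CAAAGTCCA, an HNF4-type site, stood in Cyp3a11, Cyp2c67, Cyp2c68, Cyp2c69 and Cyp2c70 and in 0.477% of all windows. The core AHR motif GCGTG stood in 13 members and in 32.5% of all windows. The same repeat with 4 bases between, an AGGTCA repeat with 1 base between and the HNF1 site (GTTAAT, any base, ATTAAC) were in none of the 46 windows. TTCNNNGAA, a STAT5-type site, was in 2 of the 46, Cyp4b1 and Cyp4f13, and in 8.47% of all windows. A match is a run of letters and not a measured binding site.

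The members lie on 12 chromosomes, many of them in tandem clusters: 13 on chromosome 19, including all 11 Cyp2c genes, 10 on chromosome 7, among them the Cyp2a and Cyp2b genes, 8 on chromosome 17 and 6, all Cyp2d, on chromosome 15. In GRCm38 (GENCODE M21), Cyp2a5 spans chromosome 7 from 26835305 to 26843548, Cyp2b10 chromosome 7 from 25897620 to 25926624, Cyp26a1 chromosome 19 from 37697798 to 37701536 and Cyp2u1 chromosome 3 from 131288441 to 131303227. Neighbours in a cluster can share reads. Another P450 transcript at 95% identity or more, aligned over at least 50% of the length, existed for 13 members. The identity was 98.2% for Cyp2a4 with Cyp2a5, 97.0% for Cyp3a25 with Cyp3a59 and 95.9% for Cyp2c37 with Cyp2c50. Cyp2d10 and Cyp2d11, at 94.4%, kept a nearly fixed distance, with Cyp2d11 minus Cyp2d10 at −0.26 to −0.14 in the 9 means and 4 livers, and may not have been counted separately. Values of these genes are uncertain to that extent.

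Over the 9 means, P450 genes spanned wide ranges. Of the 54, 33 (61.1%) had a range of 1 or more over the means, against 37.4% of all genes, and the median range was 1.29 for members and 0.82 for all genes. The widest ranges were those of Cyp2a5 (3.58), Cyp17a1 (2.63), Cyp2c55 (2.46), Cyp26a1 and Cyp2u1 (2.18 each) and Cyp2b10 (2.17). For 38 members the mean level was 2 or more. Cyp1a1, Cyp4f39, Cyp2j8 and Cyp2a22 were under 1 in all 9 means, and 7 members lay within 0.05 of the lowest value of a table in at least 1 mean or liver. Each table bottoms out at its own lowest value, between 0.05 and 0.55, so differences of such members are bounded by it.

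The highest of the 9 means was that of 3-month mice at 0 h for 18 of 54 members, a larger share than the 18.5% of all genes. Untreated 3-month mice at 72 h held the highest mean of 9 of 54, against 5.6% of all genes. For 12-month ATRi mice at 72 h it was 4 of 54, against 29.5% of all genes. The lowest mean was that of 12-month ATRi mice at 72 h for 15 of 54, against 21.7% of all genes. It was that of 3-month mice at 48 h for 12 of 54, against 11.4% of all genes.

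**Figure D1:**
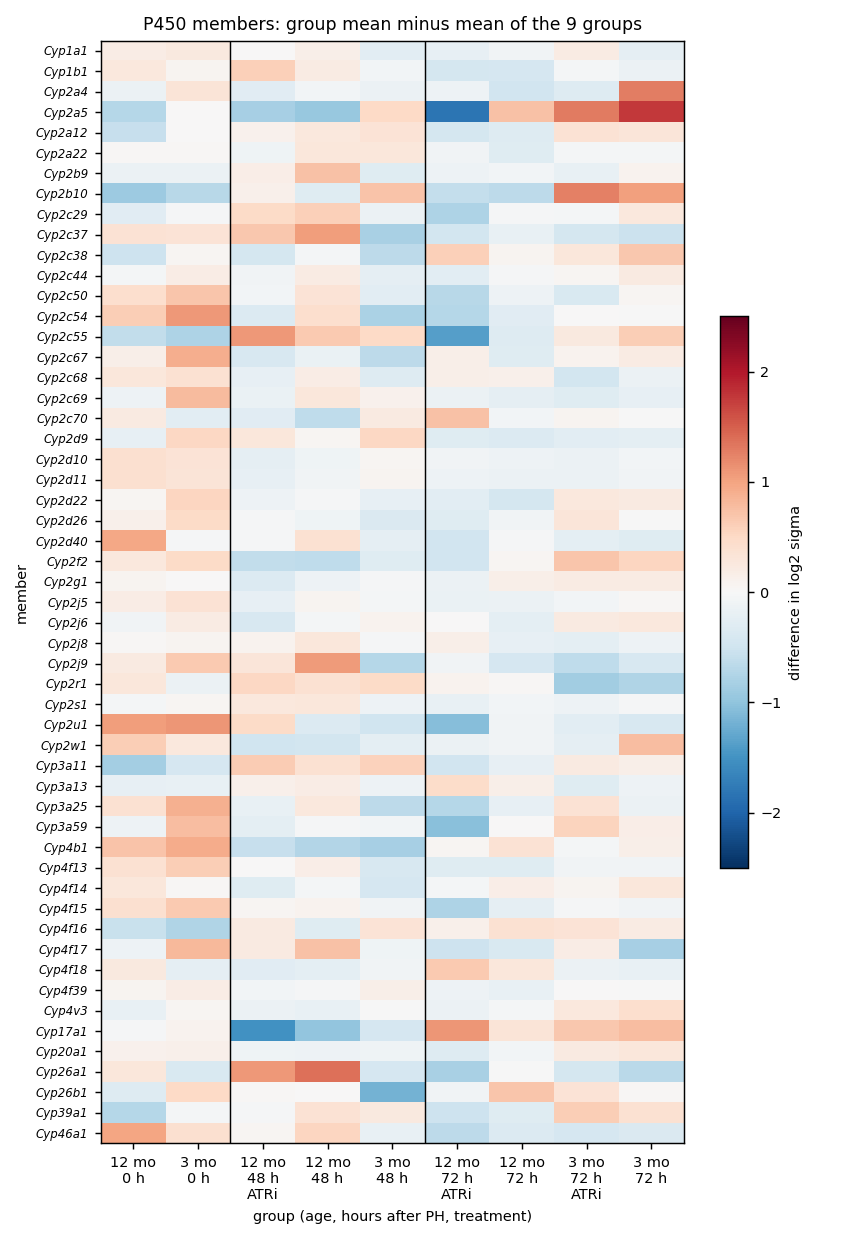
Each of the 54 P450 members (rows, by family number) in the 9 groups (columns, by hours after PH, then age and ATRi) as the group's mean level minus the mean over the 9 groups, in log2 sigma. Red is above and blue below the gene's own mean; Cyp2a5 (range 3.58) and Cyp17a1 (2.63) span the widest ranges, and the 12-month ATRi mean at 72 h is the lowest for 15 members.

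Before surgery, the P450 genes of 12-month and 3-month livers differed little in size. By 1 or more, 1 member was higher at 12 months and none was lower, against 1.27% of all genes in either direction (0.872% higher and 0.396% lower). That member was Cyp2d40, at 4.42 in 12-month and 3.42 in 3-month livers. Smaller differences ran mostly 1 way: 39 of 54 members were lower at 12 months, with a median of −0.20, while the median of all genes was −0.05. All 4 Cyp2a, all 4 Cyp2j and all 4 Cyp3a members were lower at 12 months. Of these, Cyp2a22 was at the lowest value of its table at both ages and Cyp2a4 at 12 months. Cyp3a13 hardly differed (6.758 in 12-month and 6.764 in 3-month livers). The lowest were Cyp4f17 (−0.94), Cyp2c69 (−0.92), Cyp3a59 (−0.90), Cyp26b1 (−0.82), Cyp2c67 (−0.77) and Cyp2a5 (−0.73), the coumarin 7-hydroxylase. Cyp26a1, the main retinoic acid hydroxylase of liver, was higher by 0.65, and Cyp46a1, a cholesterol 24-hydroxylase best known from brain, by 0.58. Beside these, 15 of 16 measured acute phase genes, which respond to inflammation, were higher at 12 months (median 0.95). Neutrophil markers were higher in 6 of 7 (1.0) and Kupffer cell markers in 9 of 9 (0.58). The part of these in the P450 differences was not tested.

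At 48 h after PH in 3-month mice, more members were lower than at 0 h than were higher. By 1 or more, 3 were higher and 9 lower, 22.2% of the members, against 6.43% of all genes (3.76% higher and 2.67% lower). The median of the members was −0.35 and that of all genes −0.09. The lowest were Cyp2c54 (2.61 at 48 h and 4.48 at 0 h), Cyp4b1 (2.39 and 4.16), Cyp26b1 (1.0 and 2.68), Cyp2u1 (4.06 and 5.66), Cyp2c67 (1.20 and 2.77) and Cyp3a25 (6.23 and 7.76). Cyp4b1 activates lung toxins, and Cyp2u1 hydroxylates long-chain fatty acids. All 6 Cyp2d and all 4 Cyp2j members were lower as well.

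The 3 members that were higher by 1 or more at 48 h than at 0 h in these mice were Cyp2b10 (2.33 at 48 h and 0.93 at 0 h), Cyp2c55 (3.42 and 2.15) and Cyp4f16 (3.02 and 1.93). Cyp2b10 is the classical CAR target of mouse liver, and Cyp2c55 is an arachidonate hydroxylase inducible through CAR and PXR. Cyp3a11, the main drug-oxidising CYP3A and a PXR target, was higher by 0.99, at 9.48 against 8.49. With the livers' spread assumed for these means, limma called 19 members in this comparison, 3 higher and 16 lower, against 13.2% of all genes (6.35% higher and 6.9% lower). Cyp2b10 and Cyp2c55 were among them.

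At 72 h in 3-month mice, Cyp2a5 joined the members that were higher. By 1 or more against 0 h, 3 were higher and 6 lower, against 4.49% of all genes (2.46% higher and 2.02% lower). After subtracting the median difference of all genes, the split was 5 higher and 3 lower, against 3.05% and 1.4% of all genes. Higher were Cyp2a5 (5.05 at 72 h and 3.31 at 0 h), Cyp2b10 (2.64 and 0.93) and Cyp2c55 (3.54 and 2.15). Lower were Cyp4f17 (−1.64), Cyp2u1 (−1.51), Cyp2c54 (−1.09), Cyp2j9 (−1.05), Cyp3a25 (−1.03) and Cyp2c69 (−1.0). Against 48 h, 6 members were higher and 1 lower at 72 h, against 4.65% of all genes (1.61% higher and 3.04% lower). They were Cyp2a4 (1.44), Cyp2c38 (1.33), Cyp2a5 (1.27), Cyp26b1 (1.22), Cyp17a1 (1.18), the steroid 17α-hydroxylase, and Cyp2w1 (1.02). The lower member was Cyp2r1, the vitamin D 25-hydroxylase, at 3.90 at 72 h and 5.13 at 48 h.

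In 12-month mice at 48 h, by 1 or more, 4 members were higher and 3 lower than at 0 h, against 5.12% of all genes (3.26% higher and 1.85% lower). Higher were Cyp2c55 (3.58 at 48 h and 2.31 at 0 h), Cyp3a11 (9.28 and 8.06), Cyp26a1 (6.41 and 5.31) and Cyp39a1 (3.63 and 2.57), the 7α-hydroxylase of 24-hydroxycholesterol. Lower were Cyp4b1 (−1.44), Cyp2u1 (−1.39) and Cyp2w1 (−1.07). Cyp2b10 and Cyp2a5 differed by 0.60 and −0.22, short of that size.

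At 72 h in 12-month mice, by 1 or more, 2 members were higher and 2 lower than at 0 h, against 3.93% of all genes (2.92% higher and 1.01% lower). Cyp2a5 was at 4.01 at 72 h and 2.57 at 0 h, and Cyp26b1, the second retinoic acid hydroxylase, at 2.88 and 1.86. Cyp46a1 (−1.33) and Cyp2u1 (−1.12) were lower. Against 48 h, 3 members were higher and 4 lower, against 5.21% of all genes (3.32% higher and 1.89% lower). Cyp2a5 (1.66), Cyp17a1 (1.30) and Cyp4b1 (1.09) were higher, and Cyp2j9 (−1.47), Cyp26a1 (−1.40), Cyp2c37 (−1.24) and Cyp4f17 (−1.11) were lower. The course of Cyp17a1 had the same shape at both ages: 4.70, 3.74 and 5.05 at 0, 48 and 72 h in 12-month mice and 4.82, 4.32 and 5.49 in 3-month mice.

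Mitosis genes were higher by 1 or more in all 13 measured at 48 h and at 72 h, at both ages, with medians of 2.62 to 3.97. Kupffer cell markers were lower at 48 h in 9 of 9 (median −0.89) and higher at 72 h in 8 of 9 (0.67) in 12-month mice, each against 0 h. In 3-month mice these markers went both ways. Marco was at 2.71, 4.41 and 5.18 and Csf1r at 4.96, 4.27 and 4.86 at 0, 48 and 72 h. Acute phase genes were higher at 48 h in 14 of 16 (median 1.15) in 3-month mice. In 12-month mice they went both ways at 48 h. Mt1 was at 11.44 and 9.28, and Orm3 at 4.63 and 6.62, at 48 and 0 h. The part of these in the P450 differences was not tested.

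**Figure D2:**
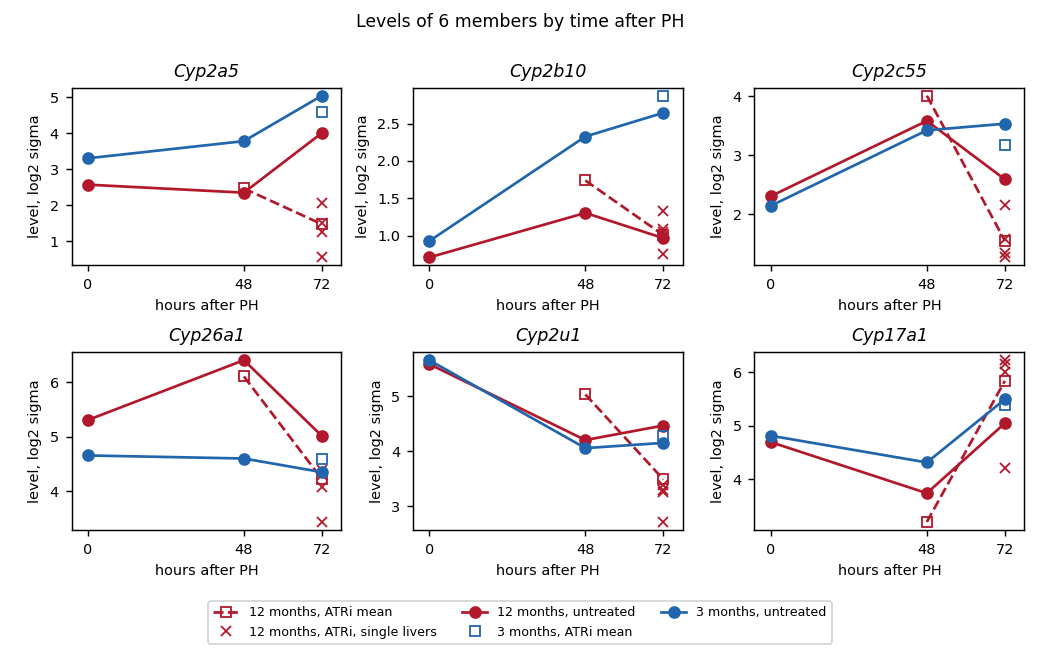
Levels (log2 sigma) of the 6 members with the widest ranges, by hours after PH. Red is 12 months and blue 3 months; filled circles with lines are untreated group means, open squares are ATRi group means, and crosses are the 4 single ATRi livers. At 72 h, Cyp2a5 had means of 1.47 with ATRi and 4.01 untreated at 12 months, and of 4.60 with ATRi and 5.05 untreated at 3 months.

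At 48 h, by 1 or more, 6 members were higher and 2 lower in 12-month than in 3-month livers, 14.8% of the members, against 1.36% of all genes (0.782% higher and 0.576% lower). Higher were Cyp2c37 (6.88 in 12-month and 5.01 in 3-month livers), Cyp26a1 (6.41 and 4.60), Cyp2j9 (4.16 and 2.40), Cyp2c54 (3.80 and 2.61), Cyp26b1 (2.19 and 1.0) and Cyp2b9 (1.33 and 0.30). Cyp2c37 and Cyp2j9 oxidise arachidonic acid. Of the 11 Cyp2c members, 10 were higher at 12 months, with a median of 0.50. Lower were Cyp2a5 (2.35 in 12-month and 3.78 in 3-month livers) and Cyp2b10 (1.30 and 2.33). Each mean is of 3 mice, and with the livers' spread assumed, limma called none of the 54 members here, against 0.108% of all genes. In the same kind of fit at 0 h it called 8 members, 1 higher and 7 lower at 12 months, against 4.83% of all genes.

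In untreated mice, Cyp26a1 was higher at 12 months at all 3 times. It was at 5.31, 6.41 and 5.01 at 0, 48 and 72 h in 12-month livers, and at 4.66, 4.60 and 4.35 in 3-month livers. The 12-month course had a peak at 48 h, while the 3-month means spanned 0.31. With ATRi at 72 h the sign was the other way, with means of 4.225 at 12 months and 4.596 at 3 months. Cyp26a1 is the member whose window holds the retinoic acid repeat printed above.

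At 72 h the 12-month livers had none of the members higher and 3 lower by 1 or more, against 2.74% of all genes (1.97% higher and 0.773% lower). The 3 were Cyp2a4 (0.05 in 12-month and 1.82 in 3-month livers), Cyp2b10 (0.96 and 2.64) and Cyp2a5 (4.01 and 5.05). The level of Cyp2a4 in 12-month livers was the lowest value of its table, and Cyp2a4 shares 98.2% of its transcript with Cyp2a5. Only Cyp2a5 remained among genes with a mean level of 2 or more. Of all 54 members, 40 were lower at 12 months, with a median of −0.14 against −0.03 for all genes.

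Beside the age difference at 72 h, acute phase genes were higher at 12 months in 16 of 16, with a median of 1.16, and 11 were higher by 1 or more. Neutrophil markers were higher in 7 of 7 (median 1.55) and Kupffer cell markers in 9 of 9 (0.94). The log2 of the summed neutrophil markers was 6.43 in 12-month and 3.80 in 3-month livers, and that of the Kupffer cell markers 9.70 and 8.30. Of the neutrophil markers Ly6g lay near the lowest value of each table, at 0.09 and 0.08. The part of these in the P450 differences was not tested.

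With ATRi at 48 h in 12-month mice, no member differed by 1 or more from untreated mice, against 0.576% of all genes (0.324% higher and 0.252% lower). The differences ran between −0.76 for Cyp2c54 (3.04 with ATRi and 3.80 untreated) and 0.83 for Cyp2u1 (5.04 and 4.20). Below 0 were 38 of 54 members, with a median of −0.15, and all genes had a median of 0.00. Cyp2j9 (−0.75), Cyp2b9 (−0.56) and Cyp17a1 (−0.54) were next lowest, and Cyp4f16 (0.52), Cyp2b10 (0.43) and Cyp2c55 (0.43) next highest.

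With ATRi at 72 h in 3-month mice, few members differed from untreated mice. By 1 or more, 1 member was higher and 1 lower, against 0.18% of all genes (0.054% higher and 0.126% lower). Cyp4f17 was at 4.30 with ATRi and 3.28 untreated, and Cyp2a4 at 0.21 and 1.82. Cyp2w1 was lower by a difference just short of that size (2.14 and 3.14). Cyp2a5 (−0.45), Cyp2b10 (0.23), Cyp3a11 (0.08) and Cyp26a1 (0.24) differed by less than 1, and the median over the members was −0.03.

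In 12-month mice at 72 h, the 4 ATRi livers can be set against the untreated mean. Cyp2a5 was at 1.49, 2.05, 1.25 and 0.55 in livers M545 to M548 and at 4.01 in the untreated mean, a difference of −2.68 ± 0.34 (SE, n = 4 livers, limma adjusted p = 0.0513). All 4 livers lay far below that mean, and M548 was at the lowest value of its table. Lower with the same adjusted p were Cyp2u1 (2.71, 3.25, 3.28 and 3.39, against 4.47; difference −1.31 ± 0.21 SE, limma adjusted p = 0.0513) and Cyp3a59 (1.31, 1.33, 1.33 and 1.12, against 2.28; −1.01 ± 0.15 SE, limma adjusted p = 0.0513). Here too no liver reached the untreated mean. For Cyp2u1 the deposited ATRi mean, 3.485, lay above all 4 livers, and the difference of deposited means was −0.98.

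No member passed the limma test in that comparison, and neither did any gene (0% of 11119). At an unadjusted p under 0.05 there were 16 members and 4116 genes. The result rests on liver M546. Without it, 9 members passed, 4 lower and 5 higher, as did 28.7% of all genes (20.3% higher and 8.39% lower). The 4 lower were Cyp2a5 (−2.92, limma adjusted p = 0.0102), Cyp2u1 (−1.34), Cyp2c55 (−1.19) and Cyp3a59 (−1.02). The 5 higher were Cyp17a1, at 6.14, 6.0 and 6.22 in the other livers, 4.21 in M546 and 5.05 in the untreated mean, and Cyp2a4, Cyp2a22, Cyp2j8 and Cyp4f39, whose levels were all under 1 in both groups. Of these, Cyp2a22 was at the lowest value of its table in all 4 livers and in the untreated mean, and Cyp2a4 in livers M545 and M548 and in the untreated mean. Their differences hold the tables' own lowest values. Without any of the other livers, limma called no member. Centred on the medians of the tables, 5 members passed, 2 higher and 3 lower, against 6.48% of all genes (4.22% higher and 2.26% lower). With the livers shifted to the deposited mean of their group 8 did, 2 higher and 6 lower, against 11.4% of all genes (9.04% higher and 2.38% lower).

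Cyp2c29, at 4.70, 7.94, 7.36 and 7.57 in livers M545 to M548 and at 7.99 in the untreated mean, differed by −1.10 ± 0.72 (SE, n = 4 livers, limma adjusted p = 0.297), with M545 far below the others. Among members with an unadjusted p under 0.05, Cyp2c55 differed by −1.0 ± 0.25, Cyp26b1 by −0.97 ± 0.33, Cyp26a1 by −0.96 ± 0.25, Cyp2f2, the naphthalene-activating P450, by −0.50 ± 0.13, Cyp3a11 by −0.45 ± 0.17 and Cyp2c70, which makes the muricholic acids of mice, by 0.63 ± 0.18 (SE, n = 4 livers). All 4 livers lay below the untreated mean for 21 members, against 25.8% of all genes, and above it for 9, against 34.7% of all genes. The median over the members was −0.21 and that over all genes 0.03. From the deposited means alone, 3 members were lower by 1 or more and none higher, against 8.39% of all genes (7.55% higher and 0.836% lower): Cyp2a5 (1.47 with ATRi and 4.01 untreated), Cyp3a59 (1.21 and 2.28) and Cyp2c55 (1.56 and 2.59).

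**Figure D3:**
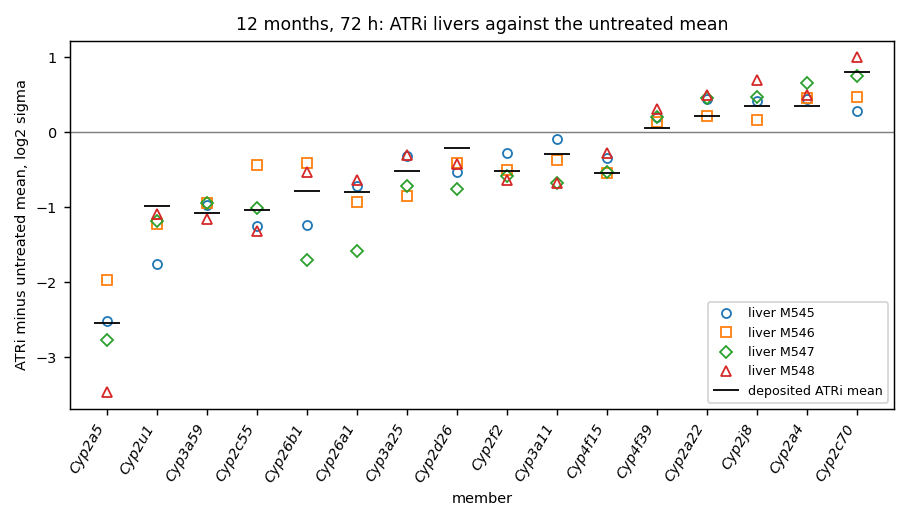
The 16 members with an unadjusted p under 0.05 in 12-month mice at 72 h, as the level in each ATRi liver minus the untreated mean (log2 sigma; symbols are the livers, black bars the deposited ATRi mean, the grey line is no difference). Cyp2a5 lies lowest in all 4 livers; none of the 16 passed the adjusted test.

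Genes of the reductase and of receptors were higher in these livers in level, though none passed the test. Por, the P450 reductase, was at 7.10, 5.11, 6.30 and 6.69 in livers M545 to M548 and at 4.63 in the untreated mean. Ahr was at 6.65, 6.51, 7.01 and 6.69, against 5.56, and Arnt, its partner, at 4.16, 3.72, 4.97 and 5.04, against 3.06. All 4 livers lay above the untreated mean for these genes, by 1.67 ± 0.44, 1.15 ± 0.16 and 1.41 ± 0.35 (SE), and none passed (limma adjusted p = 0.0576, 0.0513 and 0.0547). Rarg, a retinoic acid receptor, was lower by 1.21. Of the 13 measured nuclear receptor and AHR genes 11 were higher with ATRi, with a median of 0.32, and of the 13 electron donor and haem synthesis genes 4 were higher, with a median of −0.23. The AHR targets Cyp1a1 and Cyp1b1 were at 0.57 and 1.04 over the livers, against 0.50 and 1.08 in the untreated mean, differences of 0.08 and −0.04.

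Against 3-month ATRi mice at 72 h, the 12-month ATRi livers had 16 members lower and 4 higher (limma adjusted p under 0.05). That is 37.0% of the members, against 30.1% of all genes (17.3% higher and 12.9% lower). The median over the members was −0.40 and that over all genes 0.02. Cyp2a5 was at 0.55 to 2.05 in the 4 livers and at 4.60 in the 3-month ATRi mean (−3.26 ± 0.34 SE, limma adjusted p = 0.00693). Cyp2b10 was at 1.33, 1.09, 1.04 and 0.75 in the livers and at 2.88 in that mean (−1.82 ± 0.16 SE, limma adjusted p = 0.00601). The livers of either gene did not reach the 3-month mean.

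The other members with the lowest differences in that comparison were Cyp2c55 (−1.58), Cyp3a59 (−1.53), Cyp39a1 (−1.22) and Cyp2f2 (−1.14, 7.78 to 8.14 in the livers and 9.05 in the 3-month mean). Cyp3a11 was lower by 0.87. Higher were Cyp3a13 (0.66), Cyp2r1 (0.63), and Cyp2j8 and Cyp2a4, both under 1 and Cyp2a4 at the lowest value of its table in 2 livers. Of the 11 measured members of the CAR and PXR list, limma called 5 lower and 1 higher, against 12.9% and 17.3% of all genes. The median level of the list was 1.492 to 3.135 in the livers and 4.597 in the 3-month mean. When each liver was left out in turn, 8 of the 20 calls held in all 4 fits (Cyp2a5, Cyp2b10, Cyp2c55, Cyp2f2, Cyp2u1, Cyp39a1, Cyp3a25 and Cyp3a59). That count was not made over all genes, so it has no background. Without M547, 8 members passed, all lower, against 9.64% of all genes (6.45% higher and 3.19% lower). Without M548, 11 passed, 1 higher and 10 lower, against 10.6% of all genes (6.78% higher and 3.85% lower). With each mean weighted as a single mouse, no member passed, against 0.018% of all genes.

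In the same comparison, Hmox1 (2.06), Ahr (1.95), Por (1.89) and Rxra (1.84), the partner of CAR and PXR, rose. By limma, 11 of 16 measured acute phase genes, 6 of 7 neutrophil markers and 4 of 9 Kupffer cell markers were called higher, against 17.3% of all genes. These are counts of calls and not of levels above the 3-month mean. The log2 of the summed neutrophil markers was 6.03 to 7.61 in the livers and 3.53 in the 3-month mean. For the Kupffer cell markers it was 9.13 to 10.06 and 7.99. The part of these in the P450 differences was not tested. Albumin transcript was at 15.07 to 16.04 in the livers and 15.87 in that mean.

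At 72 h against 48 h, both under ATRi in 12-month mice, limma called 16 members lower and 4 higher. That is 37.0% of them, against 38.5% of all genes (17.8% higher and 20.7% lower), so the share was near the background. Cyp2c55 was at 1.35, 2.15, 1.58 and 1.27 in the livers at 72 h and at 4.01 in the 48 h mean (−2.42 ± 0.27 SE, limma adjusted p = 0.00434). Cyp26a1 was at 4.30, 4.08, 3.44 and 4.38, against 6.11 (−2.06 ± 0.27 SE, limma adjusted p = 0.00521). No liver reached the 48 h mean of these genes.

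Cyp2u1 fell by 1.88, Cyp3a11 by 1.30 and Cyp1b1, an AHR target, by 1.07 between these times. From the deposited means, the difference of Cyp2u1 was −1.55. Cyp17a1 rose by 2.43 ± 0.52 (SE, limma adjusted p = 0.0151), with livers at 6.14, 4.21, 6.0 and 6.22 against 3.21 at 48 h. Cyp2c70 (0.84) and Cyp2c38 (0.78) rose as well. The fourth call, Cyp2a4 (0.31), rests on a 48 h mean and livers M545 and M548 that were each at the lowest value of their table. In untreated 12-month mice, the same pair of times gave means of 5.01 and 6.41 for Cyp26a1, 2.59 and 3.58 for Cyp2c55 and 5.05 and 3.74 for Cyp17a1 at 72 and 48 h. The difference between treated and untreated courses was not tested. When each liver was left out in turn, 8 of the 20 calls held in all 4 fits, a count not made over all genes. Without M547, 9 members passed, against 22.6% of all genes, and without M548, 10, against 24.5% of all genes. With each mean weighted as a single mouse 5 passed, all lower, against 5.98% of all genes (2.5% higher and 3.48% lower).

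Against 12-month mice at 0 h, limma called 23 members lower and 2 higher in the 12-month ATRi livers at 72 h. That is 46.3% of the members, against 48.1% of all genes. The balance of directions differed from that of all genes, where 23.0% were higher and 25.1% lower. Cyp2u1 was at 2.71, 3.25, 3.28 and 3.39 in the livers and at 5.59 at 0 h (−2.43 ± 0.18 SE, limma adjusted p = 0.000983). From the deposited means, its difference was −2.10. Cyp2d40 fell by 1.87, Cyp2c54 by 1.55, Cyp46a1 by 1.49, Cyp26a1 by 1.26 and Cyp2a5 by 1.24. Cyp2c38 (0.84) and Cyp3a13 (0.56) rose. Livers all lay below the 0 h mean for 26 members and above it for 6, against 36.6% and 31.5% of all genes. Por (2.77), Rxra (2.43) and Ahr (2.37) rose and Uros, of haem synthesis, fell by 2.04. These livers come from mice that also contribute to the 0 h mean, so they are not independent of it. When each liver was left out in turn, 15 of the 25 calls held in all 4 fits, a count not made over all genes. Without M547, 16 members passed, 2 higher and 14 lower, against 32.5% of all genes (16.4% higher and 16.2% lower). With each mean weighted as a single mouse 2 passed, both lower, against 1.97% of all genes (1.09% higher and 0.881% lower).

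The difference in the ATRi difference between ages at 72 h was tested for every gene. Cyp2a4 was the only member and the only gene that passed (2.12 ± 0.12 SE, limma adjusted p = 0.0123), 0.00899% of all genes. It rests on a level of 0.05 in untreated 12-month livers, the lowest of that table, 1.82 in untreated 3-month livers and levels under 1 with ATRi at both ages. The call was lost without M545 (adjusted p = 0.152), without M547 (0.0668) and without M548 (0.176). For Cyp2a5 the difference was −2.23 ± 0.48 (SE, limma adjusted p = 0.111), made of −2.68 at 12 months and −0.45 at 3 months. For Cyp3a59 it was −1.39 (limma adjusted p = 0.11) and for Cyp2u1 −1.44 (0.11). From the deposited means, that of Cyp2u1 was −1.11. Without M546, 7 members passed, 4 higher and 3 lower, against 13.4% of all genes (10.4% higher and 3.07% lower).

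The 4 ATRi livers differed among themselves in many of these genes, with a median SD of 0.279 over the members and 0.233 over all genes. Liver M545 was the lowest of the 4 for 22 members (40.7%), against 23.3% of all genes, and M548 the highest for 23 (42.6%), against 24.4%. Of the 11 Cyp2c genes, 8 were among those 22 and 7 among those 23. Cyp2c29, an arachidonate epoxygenase, was at 4.70 in M545 and at 7.94, 7.36 and 7.57 in the others, and at 7.99 in untreated mice. Cyp2c37 was at 2.40 in M545 and at 5.54, 5.64 and 6.30 in the others, and at 5.64 in untreated mice. For these genes M545 stood far below the other livers, which lay near the untreated mean.

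Cyp2c50 (0.93 in M545 and 2.36 to 2.48 in the others) and Cyp2c54 (1.04 and 2.77 to 3.14) were also lowest in M545. Outside the cluster, Cyp2d40 was at 1.24 in M545 and at 2.21 to 3.42 in the others. Of the left-out P450s, Cyp2e1 was at 9.37 in M545 and at 11.53 to 11.92 in the others, and Cyp1a2 at 6.07 and at 8.36 to 8.39. Not all left-out P450s were lowest in M545. Cyp51 was highest in M545 (8.05, against 6.22 to 7.77), as was Cyp4a12b. Cyp4a14 was lowest in M547 (1.63, against 2.77 in M545) and Cyp4a32 in M548. Cyp2c38, Cyp2c67, Cyp2c68 and Cyp2c70, of the same cluster, did not stand apart in M545, with 2.44, 1.69, 1.99 and 8.88, against 1.69 to 2.51, 1.96 to 2.61, 1.80 to 2.51 and 9.07 to 9.60 in the others. In the same liver the log2 of the summed sinusoidal endothelial markers was 6.44, against 7.30 to 7.48 in the others, that of cholangiocyte markers 9.17, against 7.47 to 8.25, and that of hepatocyte markers 15.47, against 15.23 to 16.17. The part of these in the P450 values was not tested.

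**Figure D4:**
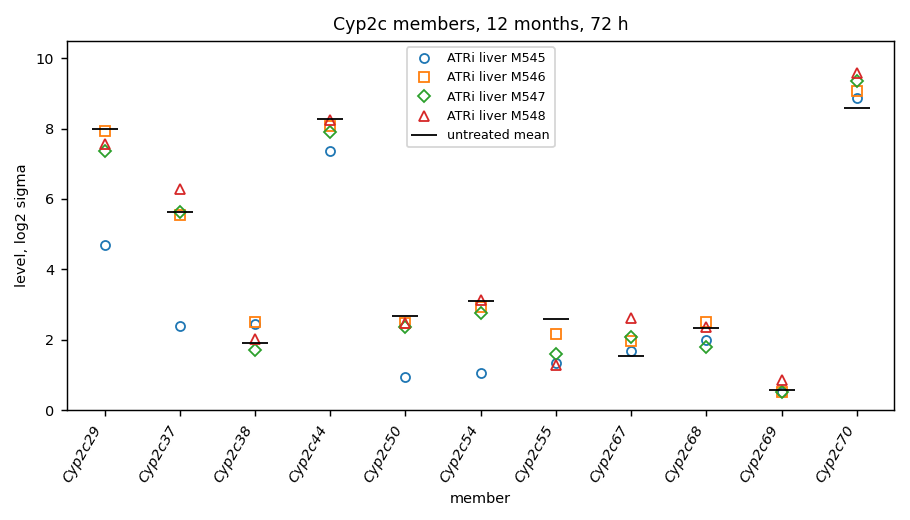
Levels (log2 sigma) of the 11 Cyp2c members in the 4 ATRi livers (symbols) and the untreated mean (black bars) of 12-month mice at 72 h. Liver M545 lies far below the other livers for Cyp2c29 (4.70), Cyp2c37 (2.40), Cyp2c50 (0.93) and Cyp2c54 (1.04).

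Cyp2d9, the testosterone 16α-hydroxylase typical of male mouse liver, had means of 0.49 to 1.35, and Cyp2b9, typical of female liver, of 0.30 to 1.33. Cyp2d9 was at 0.62 and 1.35 at 0 h in 12-month and 3-month mice. The other measured members of the list of male-biased genes were Cyp2d40, at 4.42 and 3.42, and Cyp2u1, at 5.59 and 5.66. Of family 4, Cyp4f14, a leukotriene ω-hydroxylase, had means of 7.65 to 8.35, and Cyp4v3 of 7.48 to 8.10. Of the 12 measured eicosanoid hydroxylases and epoxygenases, 1 was higher and 2 were lower by 1 or more at 48 h against 0 h at 3 months, where 3.76% of all genes were higher and 2.67% lower. Against 0 h, limma called none of them higher and 4 lower in the 12-month ATRi livers at 72 h. It called 23.0% of all genes higher and 25.1% lower.

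Cyp2c44, an epoxygenase, had the narrowest range among the members with a level above 2, at 8.04 to 8.52 over the 9 means. Cyp2j5 (7.45 to 8.02), an arachidonate epoxygenase, and Cyp20a1 (3.03 to 3.63), a P450 of unknown substrate, also had narrow ranges. The 9 means of each of these members spanned at most 0.60.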

How the data were processed

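The P450 members, gene lists and tests were chosen with earlier results of these data known. The authors deposited 12 tables of log2 levels of a value called sigma, each holding the mean of a group or, for 1 group, also its single livers, over 11119 genes with positions in bins of 10000 bp. The submitters' processing notes name the build GRCm38/mm10. The aligner, counting, scaling and filter are not given in the sources used here, nor how means were made. No read counts are given, so depth is unknown. Within each group the samples carry distinct mouse labels, so replicates are taken as separate mice. The 48 h groups all use the same labels, which therefore do not tell mice of different 48 h groups apart.

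From the deposited levels, members were taken by symbol, and differences are the first-named group minus the second, with no pseudocount and no filter on low values. In 11 comparisons both groups are means. Another 5 were fitted with limma 3.58.1 in R 4.3.3 on all genes (livers weighted 1, means by their number of mice, intensity trend, robust empirical Bayes, 3 residual degrees of freedom, two-sided), and the script was tested on simulated data. The mean of the 4 livers' levels lay below the deposited mean of their group by a median difference (deposited minus livers) of 0.13 over members and 0.09 over all genes, so tested differences can hold such an offset. Alternatives are in the closing section, 1 of them (deposited means by size) chosen after seeing the data. Members named by a difference are the up to 6 highest and 6 lowest of a comparison plus 8 index genes, and of other lists up to 4 genes. Transcript identity came from blastn 2.17.0 on GENCODE M21, which matched 53 of 54 members, and promoter windows from RefSeq.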

Additional observations from a re-analysis of the deposited data

Results flagged for a closer look

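Among the 4 ATRi livers, 5 of the 54 members had a liver whose gap to its nearest neighbour, as a share of the whole range, was above Dixon's 95% critical value. Of all genes 6.19% had such a liver, and chance gives about 1 in 20. Liver M548 was highest for Cyp3a13 (gap share 0.95; 7.60 against 7.22 to 7.24) and for Cyp2c69 (0.938; 0.85 against 0.50 to 0.52, near the lowest values of the tables). It was lowest for Cyp3a59 (0.907; 1.12 against 1.31 to 1.33). Liver M546 was lowest for Cyp17a1 (0.888; 4.21 against 6.0 to 6.22). Liver M545 was lowest for Cyp2c50 (0.924; 0.93 against 2.36 to 2.48).

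The ATRi difference at 72 h differed between 12 and 3 months for Cyp2a4 (2.12), by the limma test of the difference itself. The 12-month untreated level is the lowest value of its table, and the transcript is 98.2% identical to that of Cyp2a5. Their part in the value was not tested.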

How the results depend on the processing

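No paired analysis was possible because the 0 h levels of the mice sampled again at 72 h are held only within a group mean. The 82 member differences checked were those called or, for 12-month ATRi against untreated at 72 h, at an unadjusted p under 0.05. None changed sign, but reweighting the means, the level filter and leaving out the intensity trend cannot change a difference, only its p. Of 720 values, 524 kept their side of the threshold, 175 lost it and 21 gained it. The cause of the moves below was not tested. With the livers' spread borrowed for comparisons of means, limma called 19 members (3 months, 48 h against 0 h; 13.2% of all genes), 16 (72 h against 0 h; 15.0%), 11 and 11 (12 months, 48 h and 72 h against 0 h; 10.1% and 12.6%), 8 (12 against 3 months, 0 h; 4.83%), 0 (48 h, 0.108%) and 1 (ATRi, 3 months, 72 h, 0.00899%). Among genes with a mean level of 2 or more, the counts were 1 (12 against 3 months, 72 h; 3.28% of such genes), 1 (ATRi, 3 months; 0.201%) and 0 (difference of ATRi differences). With each mean weighted 1, they were 2 (12-month ATRi at 72 h against 0 h, 1.97% of all genes), 5 (against 48 h ATRi, 5.98%), 0 (against 3-month ATRi, 0.018%) and 0 (difference of ATRi differences), and without the intensity trend 0 for the last. For 12-month ATRi against untreated at 72 h, centring gave 5 (6.48% of all genes) and shifting the livers 8 (11.4%). From deposited means at a difference of 1 or more, counts were 3 (ATRi against untreated, 8.39% of all genes), 7 (against 3-month ATRi, 13.0%), 10 (against 48 h, 19.7%), 11 (against 0 h, 18.1%) and 8 (difference of ATRi differences, 11.2%). Leaving out each liver in turn gave 0 to 9, 8 to 22, 9 to 20, 16 to 27 and 0 to 7 in the same order (0 to 28.7%, 9.64 to 39.8%, 22.6 to 44.2%, 32.5 to 51.2% and 0 to 13.4% of all genes). Untested differences rest on means of 3 to 8 mice with unknown depth, and members near the lowest value of a table are bounded by it. For 6 members (Cyp2d26, Cyp2j9, Cyp2r1, Cyp2u1, Cyp4f13 and Cyp4v3) the deposited ATRi mean lay above all 4 livers, and for 7 below.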
